A study of Mus musculus with 53 samples.

Results

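Among 53 expression arrays of mouse T-cell lymphoblastic tumours, 5 arrays came from tumours that carry a Tal1 transgene. They are 2 arrays labelled Tal1 transgenic and 3 labelled Tal1-LMO2 double transgenic, chosen by the genotype label alone and treated as 1 group, the Tal1-driven arrays. The reference was the 33 arrays of 10 other backgrounds whose genotype names neither TLX1 nor p53, with each background's mean weighted equally. These were tumours with a beta-catenin transgene (3 arrays), an LMO1 transgene (3), an olig1-LMO1 double transgene (3), Nup98HoxD13 (3), Pokemon (2) or ThPOK (3), with the Ikaros Plastic genotype (3), with an E2A knockout alone (2) or with Rag and E2A knockouts (2), and from Cdkn2a knockouts with retroviral insertional mutagenesis (9). All are labelled C57BL/6, T-cell lymphoblasts, TLX1 negative and untreated. The labels give no age, no promoter for the transgenes and no tumour cell fraction. Nothing states that arrays of a background came from separate mice, so the p-values measure the spread between these arrays only. In whole tumours, fewer cells of a type and less RNA per cell cannot be told apart.

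TAL1 is a basic helix-loop-helix factor of blood stem cells and red cell precursors that is silenced as thymocytes mature. When it is switched on wrongly in T-cell precursors it pairs with the E proteins E2A (encoded by Tcf3) and HEB (Tcf12), which normally drive T-cell differentiation, and LMO1 or LMO2 with LDB1 holds the resulting complex together on DNA. The pairing takes E proteins away from their own targets, as do the Id proteins.

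The hybridization controls were highest on the arrays of the Tal1-driven and the E2A-deficient tumours. These controls are bacterial and phage RNAs added to each sample in the laboratory, and they do not depend on the tumour. Clustering the 38 arrays on these 18 probe sets into 2 clusters gave a set of 9 arrays and a set of 29. The 9 were the 5 Tal1-driven arrays and the 4 E2A-deficient ones (E2A knockout and Rag E2A knockout), with a mean control level of 12.16 to 12.77 on the log2 scale. The 29 arrays of the other 8 backgrounds lay between 9.19 and 11.87. The number of clusters was set beforehand, so some split was bound to appear. The edges of the 2 sets, 11.87 and 12.16, lie closer together than 9.43 and 10.07, 2 neighbouring levels within the 29. Over all 33 reference arrays, the controls averaged 10.94 ± 0.85 (SD), against 12.51 ± 0.25 in the Tal1-driven arrays (permutation test with 100000 resamples, p = 0.00046, adjusted over 5 quality measures 0.0023). Against those 8 backgrounds, array set and tumour background cannot be told apart. Only the comparison with the 4 E2A-deficient arrays lies within 1 array set, and its value, the within-set difference, is given beside most of the named genes. The difference uses the means of these 9 arrays. Its standard errors and p-values come from the fit of all 38 arrays, so the spread of the other 29 enters them. The E2A-deficient tumours lack E2A, a partner of TAL1. Where a within-set difference is small, likeness of these tumours and the shared array set therefore cannot be told apart. The 3′ to 5′ ratio of the beta-actin controls, a sign of RNA quality, was also higher in the Tal1-driven arrays (log2 ratio 0.52 ± 0.34 against 0.22 ± 0.15, adjusted permutation p = 0.037). It was 1.08 and 0.57 in the 2 Tal1 arrays and lay between 0.27 and 0.40 in the 3 Tal1-LMO2 arrays. Both permutation tests shuffled single arrays without keeping the arrays of a background together, so their p-values can be too small.

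**Figure D1:**
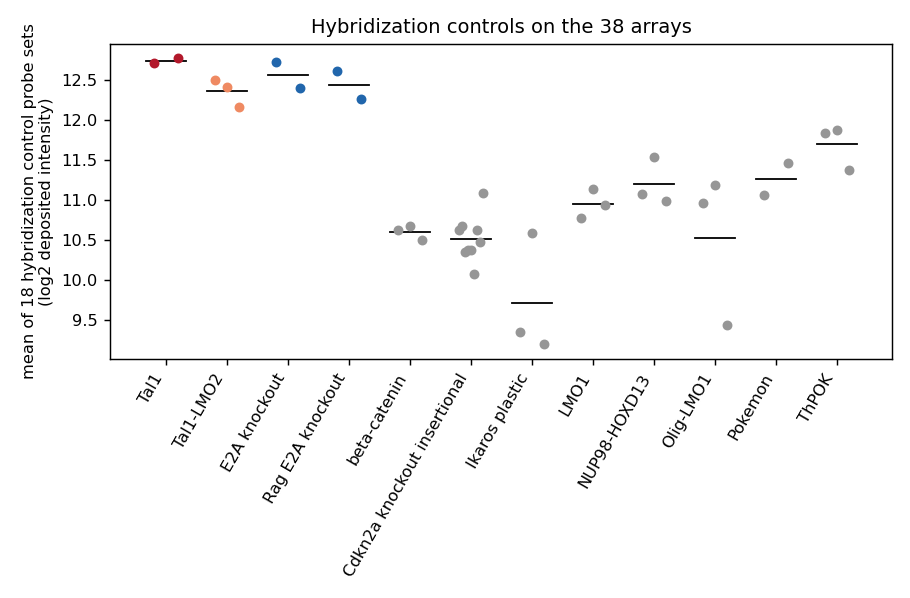
Mean log2 deposited intensity of the 18 hybridization control probe sets (vertical axis) for each of the 38 arrays, by background; points are arrays and lines are background means. The 5 Tal1-driven arrays (red and orange) and the 4 E2A-deficient arrays (blue) lie between 12.16 and 12.77, and the 29 other arrays (grey) lie between 9.19 and 11.87.

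The Tal1 transgene could not be checked from the Tal1 probe set. Tal1 was 8.01 and 7.99 in the 2 Tal1 arrays and 8.21, 7.67 and 7.89 in the 3 Tal1-LMO2 arrays, against 7.75 to 8.59 (median 8.20) in the reference, too low to pass the filter on dim genes. Lmo2, the other transgene, was 8.63 and 8.48 in the Tal1 arrays and 7.93, 7.77 and 7.87 in the Tal1-LMO2 arrays, against 7.75 to 10.04 (median 8.71) in the reference. Neither probe set was therefore high in the arrays whose label names its gene, and the labels do not say whether they detect the transgenes' RNA. Lmo1, by contrast, averaged 12.91 in the LMO1 and 12.95 in the olig1-LMO1 arrays, where its label says it should be high.

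The arrays carried the markers of T cells. Cd3e, a chain of the CD3 signalling complex, lay between 12.26 and 12.69 in the 5 arrays, and Lat, the adaptor below the receptor, between 12.57 and 12.85. Cd79a, a chain of the B-cell receptor, lay between 8.17 and 8.82. Over all genes, the 5 arrays correlated with each other at Pearson r 0.950 to 0.972 and with the reference arrays at a median of 0.936. By the same correlations, the nearest array of Tal1-LMO2 replicates 1 and 3 was an E2A knockout array, and the nearest of the other 3 was another Tal1-driven array.

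Against the 10 backgrounds together, the Tal1-driven tumours differed in many genes by small amounts. Of 8515 genes tested, 889 were higher (10.4%) and 933 lower (11%), 21.4% in all (limma with Benjamini-Hochberg adjustment, adjusted p under 0.05). Only 15 of these were at least 2-fold higher (0.176%) and 48 at least 2-fold lower (0.564%), and the median difference over all genes was -0.01 on the log2 scale. When the background was instead treated as a random block, since arrays of a background resemble each other (estimated correlation 0.497), no gene passed (lowest limma adjusted p 0.673, with 605 genes at an unadjusted p under 0.05). Every call against the 10 backgrounds named here, of a gene or of a list member, was lost in that model. Within the array set, 8 genes were higher and 3 lower, 0.129% of the 8515, and 479 had an unadjusted p under 0.05. Of the 1822 genes that differed from the 10 backgrounds together, 1238 (67.9%) had the same sign within the set, and 8 passed there too. Both comparisons use the same Tal1-driven arrays, and the E2A-deficient arrays are part of the reference. Some agreement of sign is therefore built in, and the share is no independent support. The median absolute difference of the 1822 genes was 0.36 against the 10 backgrounds and 0.098 within the set.

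The number of differing genes depended on the background compared. Against the 2 E2A knockout arrays the 5 Tal1-driven arrays differed in 2 genes (0.0235%), and against the 2 Rag E2A knockout arrays in 9 (0.106%). Against the 2 Pokemon arrays, a comparison of the same size across the array sets, 894 genes differed (10.5%). The 3 NUP98-HOXD13 arrays gave 664 (7.8%), LMO1 1291 (15.2%) and olig1-LMO1 1525 (17.9%). ThPOK, Ikaros Plastic and beta-catenin gave 3209, 3799 and 3867 (37.7%, 44.6% and 45.4%), and the 9 Cdkn2a arrays, the largest background, 4181 (49.1%). All of these comparisons share the 5 Tal1-driven arrays.

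**Figure D2:**
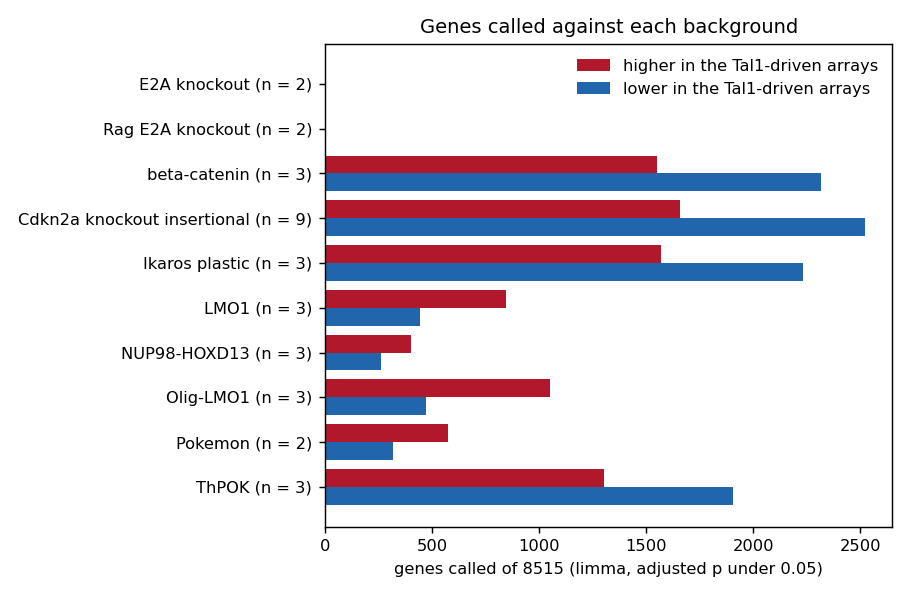
Genes called higher (red) or lower (blue) in the 5 Tal1-driven arrays against each reference background in turn (horizontal axis, number of 8515 genes; limma, adjusted p under 0.05), with the number of arrays of each background. The E2A knockout and Rag E2A knockout backgrounds, in the same array set as the Tal1-driven arrays, gave 2 and 9 genes, too few to see as bars, and the others gave 664 to 4181.

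Among the named genes, H2-T3, Ifi202b and Ifi204 had the largest increases, and all were also high on average in the E2A-deficient tumours. H2-T3, which encodes the thymus leukaemia antigen, a non-classical class I molecule, was 10.73 and 12.84 in the Tal1 arrays and 12.07, 12.33 and 12.75 in the Tal1-LMO2 arrays. The reference ran from 7.37 to 12.83 with a median of 8.52, and 8 of its 33 arrays lay above the lowest Tal1-driven one. The difference was 2.56 ± 0.59 (SE, n = 5 and 33, limma adjusted p = 0.0032). The E2A knockout and Rag E2A knockout means were 12.51 and 12.62, next was NUP98-HOXD13 at 10.57, and the within-set difference was -0.42 ± 0.82.

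Ifi202b and Ifi204 encode interferon-inducible PYHIN proteins, a family that includes sensors of DNA. Ifi202b was 12.02 and 9.17 in the Tal1 arrays and 11.18, 10.78 and 11.15 in the Tal1-LMO2 arrays, against a reference median of 7.80 (7.03 to 12.04), a difference of 2.25 ± 0.49 (limma adjusted p = 0.0019). Its E2A-deficient arrays lay between 10.55 and 12.04, and the within-set difference was -0.46 ± 0.67. Ifi204 was 11.70 and 11.06 in Tal1 and 10.66, 11.17 and 9.73 in Tal1-LMO2, against a median of 7.57 (6.44 to 11.29), a difference of 2.21 ± 0.45 (limma adjusted p = 0.0013). Its within-set difference was 0.48 ± 0.62, and the Ikaros Plastic mean (10.59) was as high as the E2A-deficient ones. Of 10 tested interferon-stimulated genes, 1 rose (Ifit2, 0.47 ± 0.14, 0.47 ± 0.19 within the set) and 1 fell (Ifit3, -0.29 ± 0.089, 0.07 ± 0.12 within the set), with a list median of -0.058, a share close to the 21.4% of all genes. Without Tal1-LMO2 replicate 2 neither passed.

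Rictor and Lalba had the opposite arrangement and held within the array set. Rictor encodes the subunit that defines the mTORC2 kinase complex. It was 9.54 and 10.13 in the Tal1 arrays and 9.59, 9.63 and 9.55 in the Tal1-LMO2 arrays, against 7.44 to 9.73 (median 8.04) in the reference. The difference was 1.40 ± 0.087 (limma adjusted p = 8.5e-13), and 1.94 ± 0.12 within the set, where the E2A-deficient arrays lay between 7.50 and 7.97 (limma adjusted p = 1.7e-12). Lalba, named for the milk protein alpha-lactalbumin, was 9.22, 9.81, 9.40, 9.49 and 9.51 in the 5 arrays, 1.01 ± 0.087 above the reference (limma adjusted p = 3.4e-09) and 1.60 ± 0.12 above the E2A-deficient arrays (adjusted p = 1.7e-10). Both genes were also high in LMO1 (9.56 and 9.83), olig1-LMO1 (9.39 and 9.66) and beta-catenin tumours (9.31 and 9.22), and the highest of the other 7 background means was Cdkn2a for both (8.12 and 8.27). The arrays thus fell into a high and a low group for each gene, with the Tal1-driven arrays in the high one.

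Of the other 6 genes higher within the set, 4 were ordered in the same way, which was seen after their values were known. Rxrg, a retinoid X receptor, was 1.06 ± 0.17 above the E2A-deficient arrays (limma adjusted p = 0.0025). Kdf1, a regulator of keratinocyte differentiation, was 0.91 ± 0.15 above them, but the gene's other probe set differed by -0.10 from the 10 backgrounds, where the probe set used gave 0.47. Gpr162, an orphan receptor, was 0.70 ± 0.12 and Mrnip, which acts with the MRN DNA-break complex, 0.50 ± 0.09 above them. For all 4 genes the LMO1 and olig1-LMO1 means and the beta-catenin mean were the 3 highest of the 10 backgrounds.

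**Figure D3:**
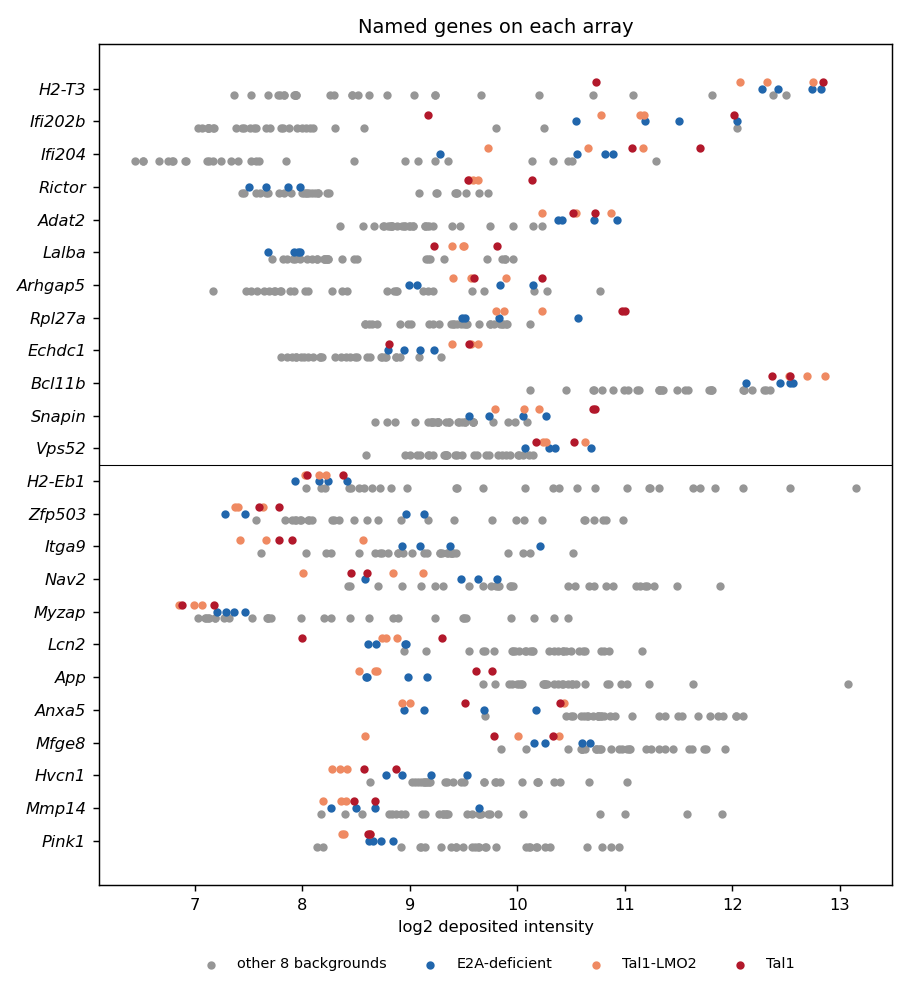
Log2 deposited intensity (horizontal axis) of the 12 highest and 12 lowest named genes on each array; each point is 1 array, in rows for the Tal1-driven arrays (red, Tal1; orange, Tal1-LMO2), the E2A-deficient arrays (blue) and the 29 arrays of the other 8 backgrounds (grey). For Rictor and Lalba the blue points lie apart from the red and orange ones, whereas for H2-T3, Adat2, H2-Eb1 and Lcn2 they lie among or next to them.

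The remaining genes of largest increase did not pass within the set. Adat2, a subunit of a tRNA adenosine deaminase, lay between 10.24 and 10.87 in the 5 arrays against a median of 9.03 and was 1.19 ± 0.11 higher, with -0.03 ± 0.16 within the set. Vps52, a subunit of an endosome tethering complex, was 0.77 ± 0.087 higher and 0.02 ± 0.12 within the set. Arhgap5 was 0.95 ± 0.19 higher and 0.23 ± 0.27 within the set, and the gene's other probe sets gave 0.33 and 0.35 against the 10 backgrounds. Echdc1, a metabolite-repair decarboxylase, was 0.87 ± 0.15 higher and 0.38 ± 0.21 within the set. Rpl27a, a ribosomal protein, and Snapin, a SNARE-binding protein, were 0.94 and 0.79 higher, and 0.53 ± 0.25 and 0.39 ± 0.17 higher within the set. The other probe set of each gene gave -0.04 and -0.13 against the 10 backgrounds. Adat2 and Vps52 thus differed from the E2A-deficient arrays by less than the standard error, while Echdc1, Rpl27a and Snapin lay above it by part of their increase.

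Among the genes of largest decrease, H2-Eb1 led. It encodes a beta chain of the class II antigen-presenting molecules. It was 8.04 and 8.38 in the Tal1 arrays and 8.02, 8.16 and 8.22 in the Tal1-LMO2 arrays, at the bottom of a reference range of 7.93 to 13.16 (median 9.44), a difference of -1.82 ± 0.24 (limma adjusted p = 1.1e-05). The E2A-deficient arrays were as low (7.93 to 8.42, within-set difference -0.02 ± 0.33), as was NUP98-HOXD13 (mean 8.14), while beta-catenin averaged 12.31. It was the 1 called gene of 6 tested class II and dendritic cell markers, where 21.4% of all genes were called. The median difference of these markers was -0.52. H2-Aa was 9.92 to 10.76 in the 5 arrays against a median of 10.74, and Cd74 10.26 to 11.10 against 11.34, and neither passed.

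Lcn2, a siderophore-binding protein of neutrophils and inflamed epithelia, was 8.0 and 9.30 in Tal1 and 8.74, 8.78 and 8.88 in Tal1-LMO2 against a median of 10.12 (8.61 to 11.16), a difference of -1.19 ± 0.18, with -0.06 ± 0.25 within the set. App, the amyloid precursor protein, Anxa5, which binds phosphatidylserine, and Pink1, a mitochondrial kinase, fell, by differences of -1.16 ± 0.26, -1.15 ± 0.20 and -1.02 ± 0.13. Within the set they were 0.22 ± 0.35, 0.17 ± 0.28 and -0.19 ± 0.18. Against the shared reference, the Tal1 and Tal1-LMO2 arrays were at -0.52 and -1.58 for App and at -0.85 and -1.35 for Anxa5. For Pink1 they were at -0.92 and -1.08. The App difference between Tal1-LMO2 and Tal1 did not pass (limma adjusted p = 0.44). Zfp503, a zinc-finger repressor, Nav2, a cytoskeletal protein, Myzap, a junction protein, and Mmp14, a membrane metalloproteinase, were at -1.42, -1.28, -1.25 and -1.02, and at -0.65, -0.77, -0.34 and -0.35 within the set. Mfge8, which bridges dying cells to phagocytes, and Hvcn1, a proton channel, were at -1.03 and -1.02, and at -0.61 each within the set. Other probe sets of Zfp503, Mmp14 and App differed by less, at -0.66, at -0.52 and between -1.04 and -0.09 against the 10 backgrounds.

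Itga9, an integrin alpha chain, was the 1 gene of these 12 whose decrease was as large within the set, on the probe set used. It was 7.91 and 7.78 in Tal1 and 7.66, 7.42 and 8.57 in Tal1-LMO2, against 7.61 to 10.52 (median 9.16) in the reference and 8.93 to 10.21 in the E2A-deficient arrays. The differences were -1.36 ± 0.27 (limma adjusted p = 0.001) and -1.54 ± 0.37 within the set, where the limma adjusted p over all genes was 0.13. All 5 arrays lay below the 4 E2A-deficient ones. The gene's other probe sets gave -0.60 and -0.18 against the 10 backgrounds.

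No gene had all 5 Tal1-driven arrays above all 33 reference arrays, and 2 (0.0235%) had all 5 below. They were Aif1l, an actin-binding relative of a macrophage protein (-0.79 ± 0.14), and Rhoq, a small GTPase of the Cdc42 family (-0.56 ± 0.14). Within the set they were at -0.24 ± 0.19 and -0.25 ± 0.19, and neither passed there.

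The 3 genes lower within the set were Syt13, Shisa2 and Aldh1b1. Syt13, a member of the synaptotagmin family, was 7.54 to 7.78 in the 5 arrays against 7.65 to 10.26 in the E2A-deficient ones, a difference of -1.25 ± 0.23 (limma adjusted p = 0.008). The E2A knockout mean was 7.86 and the Rag E2A knockout mean 9.93, so the difference lay mostly with the Rag E2A knockout arrays. Syt13 was also at -1.35 ± 0.17 against the 10 backgrounds, where its mean ran from 7.76 (Cdkn2a) to 10.29 (olig1-LMO1). Shisa2, which retains Wnt and FGF receptors in the cell, was 7.51 to 7.80 against 7.91 to 9.64 (-1.34 ± 0.27, adjusted p = 0.022). Aldh1b1, a mitochondrial aldehyde dehydrogenase, varied widely among the 5 arrays, at 9.86 and 8.06 in Tal1 and 7.74, 7.66 and 10.89 in Tal1-LMO2, all below the E2A-deficient range of 11.15 to 12.07 (-2.75 ± 0.59, adjusted p = 0.044). The remaining 2 genes higher within the set were Igkv8-30, an immunoglobulin light-chain segment, and Tcf3.

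Of the partners of TAL1, 1 rose and 3 fell among 12 tested members of the complex list (median -0.036), where 10.4% of all genes rose and 11% fell, and none passed within the set. The 4 members below the filter were Tal1, Lyl1, Ldb2 and Gata1. Cbfa2t3, which encodes the corepressor ETO2, lay between 9.72 and 10.31 and was 0.43 ± 0.11 higher (limma adjusted p = 0.0089), with 0.17 ± 0.16 within the set, and its other probe sets ran from -0.18 to 0.67. Lmo2 was at -0.52 ± 0.17 (adjusted p = 0.027) but 0.30 ± 0.23 within the set, and its call was lost when any 1 of the 3 Tal1-LMO2 arrays was left out (adjusted p up to 0.12). Lmo1 was at -1.27 ± 0.21, and at -0.35 ± 0.21 (adjusted p = 0.21) without both backgrounds that carry an LMO1 transgene. Runx1, a partner factor at TAL1-bound sites, was at -0.53 ± 0.13 on the probe set used, but at 0.05 when its 5 probe sets were averaged and 0.43 on the one of widest spread, so it has no settled direction. Gata3 (10.27 to 11.55, 0.34 ± 0.24), Myb (12.56 to 12.85, 0.04 ± 0.17), Ldb1 (-0.04 ± 0.14), Cbfb (-0.03 ± 0.10), Gata2 (-0.08 ± 0.09), Ssbp2 (0.12 ± 0.29), Ssbp3 (0.39 ± 0.17) and Lmo4 (-0.45 ± 0.30) did not pass. Of 7 tested genes that TAL1 is known to bind and activate in human T-cell leukaemia, Runx1 alone passed, against 21.4% of all genes, and the list median was 0.31.

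Among E proteins and their inhibitors, 2 of 6 tested genes fell, both of them Id genes, and none rose, beside 11% of all genes lower. Id3 was 8.47 and 8.46 in the Tal1 arrays and 7.78, 7.91 and 9.90 in the Tal1-LMO2 arrays, against 7.72 to 11.68 (median 10.52) in the reference. The difference was -1.63 ± 0.41 (limma adjusted p = 0.0057). All 5 arrays lay below the reference median, with Tal1-LMO2 replicate 3 nearest to it. The E2A-deficient arrays were split, with both Rag E2A knockout arrays low and both E2A knockout arrays higher (7.72 to 11.29 over the 4), and the within-set difference was -0.52 ± 0.56. Id1 was 8.18 to 9.04 against a median of 8.95 and was at -0.64 ± 0.20 (limma adjusted p = 0.021), with -0.46 ± 0.28 within the set. The Id1 call was lost without both LMO1 backgrounds, without Tal1-LMO2 replicate 1 and without Tal1-LMO2 replicate 2. Id2 was at -0.14 ± 0.33.

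Tcf3, the gene deleted in the E2A knockouts, was 10.49 and 10.94 in the Tal1 arrays and 11.47, 11.14 and 10.70 in the Tal1-LMO2 arrays. The E2A-deficient arrays lay between 9.53 and 10.05, below all 5, and the difference was 1.10 ± 0.21 (limma adjusted p = 0.013). Against all 10 backgrounds it was 0.40 ± 0.15 (adjusted p = 0.06). Tcf12 was 12.28 to 12.68 (0.17 ± 0.17) and Tcf4 9.42 to 10.57 (-0.15 ± 0.13).

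**Figure D4:**
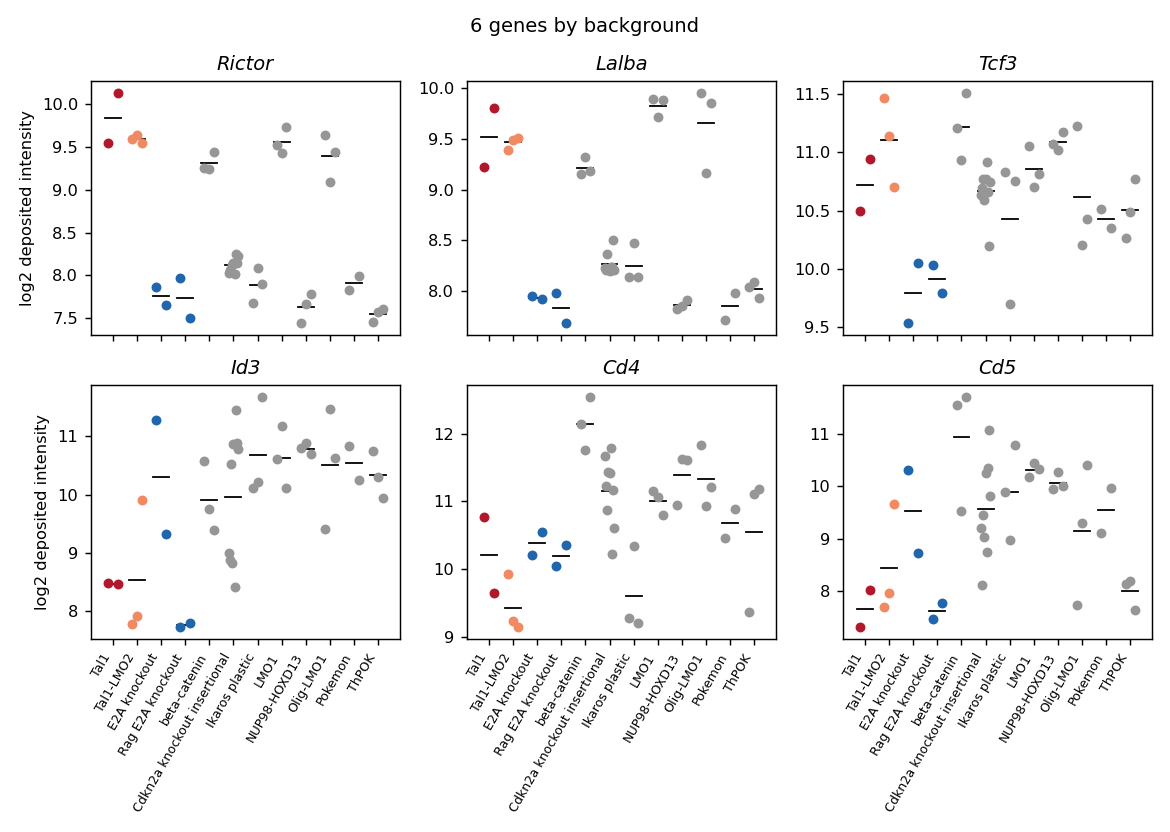
Log2 deposited intensity (vertical axis) of 6 genes by background; points are arrays (red, Tal1; orange, Tal1-LMO2; blue, E2A-deficient; grey, others) and lines are background means. Rictor and Lalba were high in the Tal1-driven, LMO1, olig1-LMO1 and beta-catenin arrays, Tcf3 was lowest on average in the E2A-deficient arrays, and Id3, Cd4 and Cd5 averaged low in the Tal1-driven arrays with overlap.

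E proteins bind short E-box sequences, and TAL1 complexes bind E-boxes and GATA sites. The upstream sequences of Cd5 and Id3, both lower in the Tal1-driven arrays, are shown to set one with E-box letters in this window beside one without (RefSeq, build GRCm38.p6, 250 bases before the gene start, 5′ to 3′ along the gene). Capitals mark CAGGTG on either strand. Also searched on both strands were 2 other E-box forms, one spelled CAGCTG and one spelled CAGATG, and the letters GATAAG of GATA sites.
Cd5, chr19:10738975-10739224, minus strand: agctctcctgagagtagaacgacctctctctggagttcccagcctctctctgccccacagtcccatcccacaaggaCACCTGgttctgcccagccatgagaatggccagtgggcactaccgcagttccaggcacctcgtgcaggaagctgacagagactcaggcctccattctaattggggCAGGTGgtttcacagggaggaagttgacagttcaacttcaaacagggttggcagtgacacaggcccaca
Id3, chr4:136143572-136143821, plus strand: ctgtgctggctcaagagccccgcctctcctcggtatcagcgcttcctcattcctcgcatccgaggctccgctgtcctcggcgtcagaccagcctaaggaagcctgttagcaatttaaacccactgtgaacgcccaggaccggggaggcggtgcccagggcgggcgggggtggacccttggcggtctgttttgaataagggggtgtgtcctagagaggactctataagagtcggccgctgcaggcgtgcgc
In Cd5 the letters start at positions -174 and -69 from the gene start, and Id3 holds none of the 4 motifs here. In windows of 300 bases around the starts of the 6888 tested genes with a sequence, CAGGTG was found in 17.1%, in 14.7% of the genes higher in the Tal1-driven arrays and in 16.2% of those lower. CAGCTG was found in 14.0%, 12.8% and 16.4%, CAGATG in 11.4%, 10.8% and 14.9%, and GATAAG in 4.79%, 4.8% and 6.63%. These shares are descriptions of the letters, not of binding.

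Of 18 tested thymocyte genes known as E-protein targets, 1 rose and 2 fell (median -0.25), a smaller share than the 21.4% of all genes, and none passed within the set. Cd4, the coreceptor for class II molecules, was 10.77 and 9.65 in Tal1 and 9.93, 9.24 and 9.15 in Tal1-LMO2, against a median of 11.07 (9.22 to 12.54), a difference of -1.10 ± 0.25 (limma adjusted p = 0.0029). The Ikaros Plastic mean was 9.61, and the within-set difference was -0.55 ± 0.35 (E2A-deficient range 10.05 to 10.55). Cd5, a negative regulator of receptor signalling that rises as thymocytes are selected, was 7.31 and 8.02 in Tal1 and 7.71, 7.96 and 9.66 in Tal1-LMO2, against a median of 9.81 (7.48 to 11.71). Its difference was -1.33 ± 0.40 (limma adjusted p = 0.017), with -0.44 ± 0.55 within the set, and it did not pass without Tal1 replicate 1 (-1.13, adjusted p = 0.069) or without Tal1-LMO2 replicate 2 (-1.29, adjusted p = 0.053). Cd8a, the other coreceptor, was 11.22 to 12.18 against a median of 11.97 (0.51 ± 0.41).

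Bcl11b, which commits progenitors to the T lineage, was the gene of that list that rose. It was 12.37 and 12.54 in Tal1 and 12.53, 12.86 and 12.70 in Tal1-LMO2 against a median of 11.56 (10.12 to 12.57), a difference of 0.86 ± 0.19 (limma adjusted p = 0.0019) and 0.18 ± 0.26 within the set. Of 11 tested T-lineage transcription factors, it rose and Ikzf1, which encodes Ikaros, fell (-0.62 ± 0.19, -0.21 ± 0.26 within the set), a share near that of all genes (10.4% higher, 11% lower). Ikzf1 was 9.30 and 9.36 in the Tal1 arrays and 10.13 to 10.79 in the Tal1-LMO2 arrays. Its call was lost without either Tal1 array, and in 10 of 57 alternatives in all.

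Of 17 tested genes of the T-cell receptor complex and its proximal signalling, 4 fell and none rose, beside 11% of all genes lower. Leaving out 1 array at a time gave 1 (without Tal1 replicate 1) to 4, and 2 without Tal1 replicate 2 or without Tal1-LMO2 replicate 2. Beside Cd5 they were Thy1, a surface glycoprotein of thymocytes (12.21 to 13.16 against a median of 13.14, -0.42 ± 0.14), Ptprc, the phosphatase CD45 (-0.38 ± 0.097), and Lcp2, the adaptor SLP-76 (-0.33 ± 0.12). Thy1 lay between 13.14 and 13.48 in the E2A-deficient arrays (-0.60 ± 0.19 within the set, adjusted p = 0.38), and Ptprc and Lcp2 were at -0.09 and -0.08 there. Lcp2 lost its call in 32 of 57 alternatives and Thy1 in 12, and with the beta-actin ratio in the model none of the 4 passed. Of 12 tested immediate genes of receptor signalling, 3 fell (median -0.34), and 2 to 5 with 1 array left out (without Tal1-LMO2 replicate 2 and without Tal1-LMO2 replicate 3). They were Junb (9.25 to 9.62 against a median of 10.03, -0.69 ± 0.13) and Ier2 (-0.63 ± 0.17), both early-response genes, and Nr4a1, an orphan nuclear receptor induced by receptor signals (10.10 to 10.61 against 11.06, -0.52 ± 0.12). Within the set they were at -0.22 ± 0.18, -0.59 ± 0.23 and 0.10 ± 0.16.

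Of 8 tested recombinase and pre-receptor genes, Prkdc, the DNA-dependent protein kinase of V(D)J joining, rose (9.34 to 9.96 against a median of 9.11, 0.40 ± 0.11, 0.13 ± 0.15 within the set) and none fell. Its call was lost without Tal1-LMO2 replicate 3. Beside this list and the next 2, 10.4% of all genes rose and 11% fell. Rag1 was 11.97 to 12.38 (0.37 ± 0.42), Dntt 11.93 to 13.05 (0.85 ± 0.32, limma adjusted p = 0.053) and Ptcra 8.15 to 10.82 (-0.19 ± 0.46). Of 7 coreceptor and lineage regulator genes, Patz1, a zinc-finger repressor of the CD8 lineage programme, rose (0.43 ± 0.13, 0.08 ± 0.18 within the set) beside the fall of Cd4, and did not pass without Tal1-LMO2 replicate 2 or replicate 3. Of 10 progenitor and cytokine receptor genes, Csf3r (-0.60 ± 0.089) and Cd93 (-0.34 ± 0.11) fell, at -0.01 and 0.24 within the set, and Cd93 did not pass when any 1 of the Tal1-LMO2 arrays was left out.

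The Notch list had no member past the threshold, of 19 tested (median 0.069). Notch1, a receptor often activated by mutation in T-cell leukaemia, was 12.33 and 12.48 in Tal1 and 12.84, 12.90 and 12.61 in Tal1-LMO2, against 8.13 to 13.44 (median 12.33), a difference of 0.78 ± 0.39 (limma adjusted p = 0.14) and -0.50 ± 0.53 within the set. Its target Dtx1 was 11.28 and 11.31 in Tal1 and 12.43 to 12.54 in Tal1-LMO2 (0.50 ± 0.47). No member passed of 10 homing and egress genes, where Ccr9 was 10.05 to 12.58 (-0.05 ± 0.56), or of 14 G1 cyclins, kinases and inhibitors, where Ccnd2 was 8.78 and 10.68 in Tal1 and 8.78, 11.72 and 10.22 in Tal1-LMO2 (0.69 ± 0.35). None passed of 19 mitosis genes, where Bub1 was 11.15 to 11.38 (0.41 ± 0.16), and 17 genes of Myc targets and ribosome biogenesis, where Ncl was 12.84 to 13.16 (-0.01 ± 0.10). At an unadjusted limma p under 0.05, these 5 lists held 4, 2, 0, 4 and 0 genes in the same order, against 3040 of all 8515 genes.

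DNA replication was the list with most members higher. Of 21 tested, 8 rose and none fell, with a median of 0.29 against -0.01 over all genes, of which 10.4% rose. All 8 calls were lost with the background as a random block (limma adjusted p of 0.673 or more). Pola1, the catalytic subunit of polymerase alpha, was 11.29 and 10.78 in Tal1 and 10.72, 10.75 and 11.11 in Tal1-LMO2 against a median of 10.37 (9.18 to 11.05), a difference of 0.68 ± 0.16 (limma adjusted p = 0.0048). Prim2, a primase subunit, was 11.29 to 11.52 against 10.76 (0.57 ± 0.12), Gins1 of the replicative helicase 10.67 to 11.17 against 10.53 (0.52 ± 0.17) and Rfc3 of the clamp loader 10.37 to 10.82 against 10.01 (0.51 ± 0.16). Rfc1, Rfc2, Rfc5 and Mcm2 were 0.24 to 0.41 higher. Within the set none passed and the list median was 0.10, and adding the beta-actin ratio to the model left 1 call. The count was 1 with the 33 arrays weighted equally and 1 for the Tal1-LMO2 arrays alone. It fell to 4 without the beta-catenin background, without Tal1 replicate 1 and without Tal1-LMO2 replicate 3, and to 5 without Tal1 replicate 2 and without Tal1-LMO2 replicate 2. The other probe sets of Rfc1 ran from -0.22 to 0.41.

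Of 12 tested BCL2 family genes, the BH3-only gene Pmaip1 (-0.48 ± 0.16) and the survival gene Bcl2l2 (-0.43 ± 0.12) fell, at 0.03 and -0.09 within the set, beside 11% of all genes lower. The count was 0 without Tal1-LMO2 replicate 2 and 1 when any 1 of the other 4 Tal1-driven arrays was left out. Pmaip1 lost its call in 18 of 56 alternatives and turned its sign in 1 more, and the other probe sets of Bcl2l2 ran from -0.34 to 0.45. Of 2 tested self-renewal genes of the Lmo2 and Lyl1 programme, Mycn fell (-0.23 ± 0.063, 0.07 within the set), and the other 9 listed were below the filter. Of 10 mature T-cell genes, Ms4a4b fell (6.78 to 7.02 against a median of 7.35, -1.42 ± 0.39, -0.81 ± 0.54 within the set), though its other probe set gave 0.08.

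In a few lists a call rested on 1 or 2 arrays. Alas2, the first enzyme of haem synthesis in red cells, was 7.88 and 8.24 in Tal1 but 7.94, 9.99 and 11.25 in Tal1-LMO2, against 7.51 to 9.04 in the reference (0.91 ± 0.32, limma adjusted p = 0.042, 0.72 ± 0.45 within the set). It was the 1 gene that rose of 8 tested red cell and platelet genes, with Car1, a carbonic anhydrase, lower (-0.26 ± 0.087). Over all genes, 10.4% rose and 11% fell. The alpha-globin gene Hba-a1 was 8.32 to 8.71 in the 5 arrays and did not follow Alas2. Nkg7, a granule protein of cytotoxic cells, was 11.24 in Tal1-LMO2 replicate 2 and 7.82 to 9.26 in the other 4 (0.99 ± 0.35, adjusted p = 0.045, 0.80 ± 0.49 within the set).

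Markers of other cells were low in part of the group. Of 18 myeloid markers, 9 fell and none rose against the 10 backgrounds (median -0.68), and of 15 stromal, endothelial and epithelial markers 4 fell and none rose (median -0.66), beside 11% of all genes lower. All of these calls were lost with the background as a random block (limma adjusted p of 0.673 or more). Leaving out 1 array at a time gave 6 (without Tal1-LMO2 replicate 2) to 11 myeloid markers, and 2 (without Tal1-LMO2 replicate 3) to 7 stromal markers (without either Tal1 array). Summed over the list, the myeloid markers were 19206 and 26140 intensity units in the 2 Tal1 arrays and 12278, 12284 and 9075 in the 3 Tal1-LMO2 arrays, against 9303 to 59861 (median 28454) in the reference. The stromal sum was 16415 and 13750 in Tal1 and 4593, 5336 and 4539 in Tal1-LMO2, against 5082 to 38316 (median 16883). The Tal1-LMO2 arrays were thus at the low end and the Tal1 arrays within the reference range on both sums. The E2A-deficient arrays were also low, at 9303 to 17108 and 5082 to 12262, and no member of either list passed within the set, where the medians were 0.13 and 0.27. Of 9 B-cell markers, Cr2 (-0.66 ± 0.11) and Cd72 (-0.50 ± 0.14) fell and Igll1, the surrogate light chain, rose (0.36 ± 0.11), at -0.0035, -0.04 and 0.15 within the set. Beside this list, 10.4% of all genes rose and 11% fell. The other probe set of Igll1 gave -0.04, and its call was lost without Tal1 replicate 1. The part of these other cells in the genes lower in the Tal1-driven arrays was not tested.

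**Figure D5:**
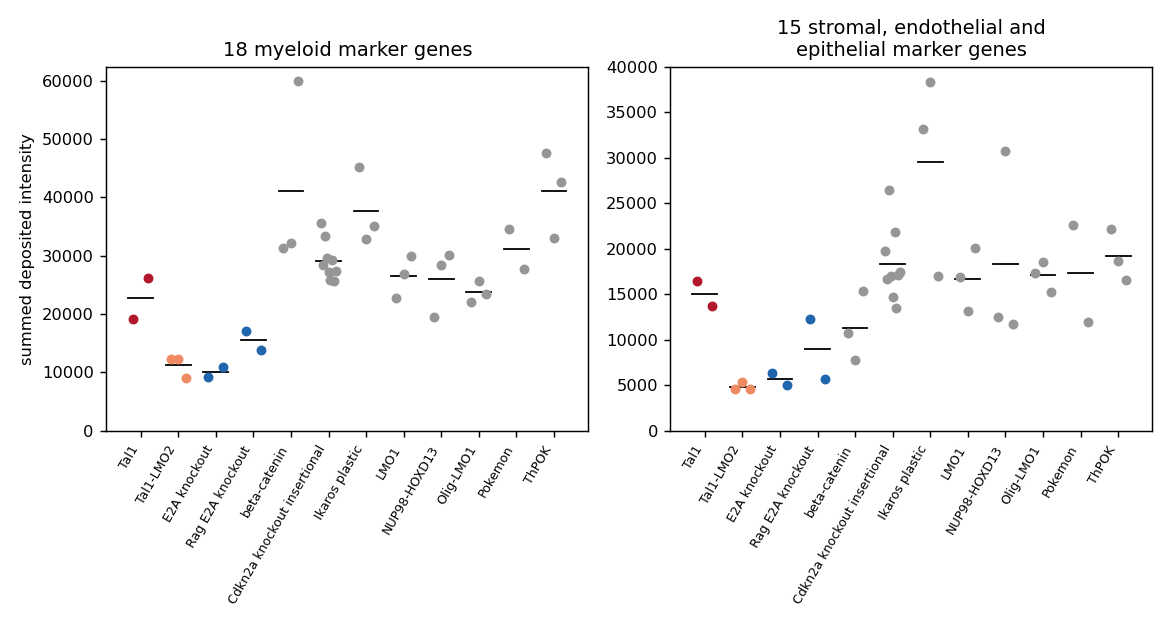
Summed deposited intensity (vertical axes, from 0) of the 18 myeloid and the 15 stromal, endothelial and epithelial marker genes on each array, by background; points are arrays and lines are background means. The 3 Tal1-LMO2 arrays (orange) lie at 9075 to 12284 and 4539 to 5336, below both Tal1 arrays (red), and the E2A-deficient arrays (blue) are also low.

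The Tal1-LMO2 and Tal1 arrays lie in the same array set and could be compared directly. Both Tal1 arrays had a higher beta-actin log2 ratio than all 3 Tal1-LMO2 arrays (1.08 and 0.57 against 0.27 to 0.40). RNA quality and genotype thus cannot be told apart in this comparison. Of the 8515 genes, 4 were higher and 70 lower in Tal1-LMO2 (0.869%, limma adjusted p under 0.05), among them 7 of the 18 myeloid and 5 of the 15 stromal markers, all lower. C1qb, a chain of complement C1q made by macrophages, was 10.20 and 10.97 in Tal1 and 9.31, 8.95 and 8.06 in Tal1-LMO2, a difference of -1.81 ± 0.39 (limma adjusted p = 0.015), and C1qa and C1qc differed by -1.92 and -2.12. Col3a1, a fibrillar collagen, was 11.47 and 10.40 against 8.03, 8.72 and 7.85 (-2.73 ± 0.65, adjusted p = 0.035). Side by side against the shared reference, 1 myeloid marker was lower in Tal1 and 11 in Tal1-LMO2, with medians of -0.15 and -0.97. Of all 8515 genes, 222 were lower in Tal1 and 617 in Tal1-LMO2, so the 2 marker counts rest on unlike numbers of calls.

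All 4 genes higher in Tal1-LMO2 can be named, though they were picked by this result. Hes1, a Notch target and repressor, was 8.09 and 9.05 in Tal1 and 10.38, 9.82 and 10.79 in Tal1-LMO2 (1.76 ± 0.33, limma adjusted p = 0.0054). Slc2a3, a glucose transporter, was 7.20 and 9.54 against 11.54, 11.34 and 10.996 (2.93 ± 0.63, adjusted p = 0.017). Brd3, a chromatin reader, and Stat5a, a cytokine signal transducer, were 1.21 ± 0.27 and 0.999 ± 0.25 higher (adjusted p = 0.019 and 0.043). The groups of 2 and 3 arrays did not overlap for any of the 4, which adds no support, since the same comparison picked them. With the beta-actin ratio in the model the count of 74 fell to 11, and it was 29 without Tal1 replicate 1 and 33 without Tal1-LMO2 replicate 3.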

How the data were processed

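The deposited values are intensities, 1 per probe set and array, as the authors processed them. How the authors normalized them: not given in the sources used here. They were used as log2 of the deposited intensity. Probe sets of 1 gene were kept (20380 of 22690), with the probe set of highest mean for each of 12393 genes, and a gene was tested if at least 3 of the 38 arrays had it above their median (8515 genes). limma (version 3.58.1, lmFit and eBayes, R 4.3.3) was fitted with 1 coefficient for the Tal1-driven arrays and 1 per reference background, and p-values were adjusted over all 8515 genes. The same fit of 38 arrays gave the comparisons with single backgrounds and within the array set. Tal1-LMO2 and Tal1 were compared in a fit of the same 38 arrays with 1 coefficient each. The standard errors of all these comparisons thus draw on the spread within every background. Differences are on the log2 scale, with standard errors from the model. The array number of each group limits the precision. On simulated data of 8515 genes for the comparison with the 10 backgrounds, log2 changes of 1 were recovered for 92% of changed genes and of 0.5 for 78%. Within the array set the shares were 83% and 38%. The simulated Tal1-driven arrays started at the mean of the compared backgrounds, with noise independent between arrays. Deviations of a whole background, which the random block allows for, were left out, so the shares do not cover them. Named genes were the 12 of largest increase and the 12 of largest decrease past the threshold for which all 5 arrays lay outside the reference interquartile range, without receptor and immunoglobulin segments, unnamed transcripts and sex-linked genes. Also named were all members of the complex and E-protein lists and the called members of other lists, up to 4 of largest size. Genes called within the set, genes whose groups did not overlap and the 4 genes higher in Tal1-LMO2 were named after their values were seen. The members and gene lists were chosen with earlier results of these data known. The array set was found after the data were examined. TLX1 and p53 arrays were left out by the rule.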

Additional observations from a re-analysis of the deposited data

Results flagged for a closer look

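Some single arrays stood apart from the other 4 Tal1-driven arrays, by the gap to the nearest one relative to the range; 93 such checks were made, of which chance is expected to mark about 1 in 20. Rictor was highest in Tal1 replicate 2 (10.13). Cr2 was lowest in Tal1-LMO2 replicate 2 (8.19), and Ssbp2, a binding partner of LDB1, was lowest in Tal1-LMO2 replicate 3 (9.06). The 3′ to 5′ log2 ratio of the Gapdh controls was highest in Tal1 replicate 1 (0.31), the array whose beta-actin ratio was also the highest of the 5.

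Among the list genes that also differed from the 10 backgrounds, 9 differed between the 3 Tal1-LMO2 and the 2 Tal1 arrays by limma's test of that difference, 8 of them macrophage or stromal markers. The list genes Fcgr3, Sparc, Cdh5, Fabp4, Tyrobp, Hes1 and Stat5a differed by the same test but did not pass against the 10 backgrounds. On the log2 scale, the Tal1-LMO2 mean minus the Tal1 mean was -0.66 for Cd93, -0.78 for Csf1r, -1.54 for Cd68, -1.92 for C1qa, -1.81 for C1qb, -2.12 for C1qc, -1.39 for Mpeg1, -2.73 for Col3a1 and -2.48 for Dcn.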

How the results depend on the processing

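The counts of 1822 genes (889 higher, 933 lower) moved most with the treatment of backgrounds. They were 0 (0 and 0) with the background as a random block, 11 (8 and 3) within the array set, 334 (220 and 114) with the 33 arrays weighted equally, and 2850 (1338 and 1512) without the E2A-deficient backgrounds. They were 786 (346 and 440) with the beta-actin ratio in the model, 1000 (569 and 431) with a stricter filter on dim genes, and 938 (341 and 597) with the Tal1-LMO2 arrays alone. With all 13 other backgrounds, 572 genes were lower, and without the beta-catenin background 614. Centring each array on its median gave 1378 genes higher, 66.7% of calls against 48.8%. The cause of these shifts was not tested. Leaving out 1 array at a time gave 1088 (without Tal1-LMO2 replicate 2) to 1995 genes, with 567 to 952 higher and 521 to 1043 lower. The 74 genes between Tal1-LMO2 and Tal1 became 42 with the stricter filter, 11 with the beta-actin covariate and 29 to 81 without 1 array.

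Runx1 turned to 0.048 and 0.43 with other choices of probe set. Within the array set the sign turned for H2-T3 (-0.42), Ifi202b (-0.46), Adat2 (-0.032), App (0.22), Anxa5 (0.17), Lmo2 (0.30), Mycn (0.068), Cd93 (0.24), Nr4a1 (0.10), Pmaip1 (0.035), Ifit3 (0.070), Car1 (0.051), Fcer1g (0.28), Csf1r (0.27), Cd68 (0.46), Adgre1 (0.12), C1qa (0.10), C1qb (0.38), C1qc (0.37), Mpeg1 (0.29), Col3a1 (0.43), Dcn (0.62) and Lum (0.27). All 24 genes of largest increase or decrease lost their call under the random block (limma adjusted p of 0.673 or more), and 22 lost it within the set, where Rictor and Lalba kept it. Bcl11b did not pass against all 13 backgrounds, Rpl27a, Nav2 and Zfp503 with the Tal1-LMO2 arrays alone, and Nav2 with the beta-actin ratio. With the 33 arrays weighted equally, Arhgap5, Lalba, H2-Eb1, Myzap, Mmp14 and Zfp503 did not pass. Zfp503 was also lost without Tal1 replicate 2 or any 1 Tal1-LMO2 array, and Nav2 without Tal1-LMO2 replicate 2.

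Array numbers in the titles did not pair samples: over 118 pairs of equal number the median correlation of deviations was -0.023. With the replicate number as a replicate block, 848 genes were higher and 877 lower. The array set and the Tal1-LMO2 arrays alone were chosen as alternatives after seeing the data.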
